A study of Mus musculus with 18 samples.

Results

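Injured kidney tubules switch on a recognisable set of genes, and 10 of them were followed here through 18 mouse kidneys: *Lcn2*, *Havcr1*, *Clu*, *Spp1* and *Timp1*, whose products are secreted or shed, *Krt8*, *Krt18*, *Krt20* and *Vim*, which encode intermediate filament proteins, and *Sox9*, a transcription factor. The 10 genes are a list of known markers of tubular injury, given by name out of 45706 genes counted. All 10 had counts in every kidney and passed the filter on low counts in every comparison.

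Whole kidneys came from male mice on the C57BL/6 background (C57BL/6J in the study's methods), aged 10 to 12 weeks at surgery, with littermates as controls. *Cxcl12* KO mice (5 kidneys) carried floxed *Cxcl12* with Pax8rtTA and TetOCre, and *Cxcl12* controls (3 kidneys) carried floxed *Cxcl12* with Pax8rtTA but without TetOCre. *Myc* KO mice (5 kidneys) and *Myc* controls (5 kidneys) differed in the same way around floxed *Myc*. All mice, controls included, had received doxycycline followed by a washout, and in all of them both kidneys were ischemic for 22.5 min and then reperfused for 12 h, before the organs were perfused with PBS and frozen. No uninjured kidney was analysed here, so no value below is a response to the injury itself. Pax8rtTA limits the recombinase to tubular epithelium, whereas RNA was taken from the whole organ, so that fewer cells of a type and less RNA per cell cannot be told apart. The labels number the replicates but do not say that each is a separate mouse, so the p-values measure the spread between these samples, which may in part be technical.

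As background, ischemia and reperfusion kill and detach tubule cells, above all in the proximal tubule, and surviving cells flatten, lose their brush border and re-enter the cell cycle. During this dedifferentiation they switch on a wound-like program: secreted and shed proteins that appear in urine and serve as clinical markers, keratins and vimentin that rebuild the cytoskeleton, and SOX9, which marks cells engaged in regeneration. CXCL12 is a chemokine that guides migrating cells through the receptor CXCR4, and MYC is a transcription factor that binds DNA with MAX at the sequence CACGTG, the E-box. The comparisons below ask whether deleting either gene in tubules left these markers at another level 12 h after the injury.

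Reads on genes numbered 12918220 to 29749500 per library, and no member had fewer than 365 reads in a kidney. In 6 kidneys under 5% of reads were unmapped. These libraries, called the deeper group here, were also sequenced to greater depth, with 32532582 reads or more where the other 12 had 26415146 or fewer, and they comprised *Cxcl12* KO 1 and 2, *Myc* KO 3 and 5, and *Myc* control 1 and 3, so that no *Cxcl12* control is among them. The targeted genes stood lower in every knockout than in any control of its cohort: *Cxcl12* stood at 29.3, 36.7, 28.8, 26.1 and 40.7 CPM (read counts scaled to library size with TMM) in *Cxcl12* KO 1 to 5 and at 55.2, 60.4 and 45.2 CPM in the controls. *Myc* stood at 26.4 to 36.2 CPM in *Myc* KO against 79.1 to 119.8 CPM in *Myc* control kidneys. *Myc* was called (log2 fold change -1.61, edgeR adjusted p = 8.82e-05), and *Cxcl12* was not (-0.73, edgeR adjusted p = 0.0942). Such a downward separation was found for 4.78% of all genes in the *Cxcl12* cohort and 4.69% in the *Myc* cohort. *Cxcl12* stood at 29.7 to 49.6 CPM in *Myc* control and 35.7 to 60.8 CPM in *Myc* KO kidneys, overlapping the *Cxcl12* KO range. Summed CPM of 6 proximal tubule markers ranged from 4163 to 6882 over the 18 kidneys, none at 0 in any kidney, so markers of the labelled tissue were present.

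Promoter sequences were taken from RefSeq for the 5 members on which the results turn, because *Myc* was deleted in 1 cohort and its E-box can be looked for directly. The windows below hold the 250 bases before a transcription start on GRCm38.p6, written 5′ to 3′ along the gene. *Lcn2* (chr2:32387740-32387989, minus strand) had the largest difference in the *Cxcl12* cohort, and *Havcr1* (chr11:46750261-46750510, plus strand, the window that ends at the start of a GENCODE transcript) the largest in the *Myc* cohort. *Spp1* (chr5:104434861-104435110, plus strand) and *Krt18* (chr15:102027966-102028215, plus strand) varied together between kidneys, and *Krt20* (chr11:99438154-99438403, minus strand) varied against *Spp1*. Capitals mark a match of a searched motif: *Spp1* and *Krt20* hold a TATAAA box. In *Lcn2* it is a GGGCGG box of the opposite strand. These boxes were added to the search after the sequences had been read.
Lcn2: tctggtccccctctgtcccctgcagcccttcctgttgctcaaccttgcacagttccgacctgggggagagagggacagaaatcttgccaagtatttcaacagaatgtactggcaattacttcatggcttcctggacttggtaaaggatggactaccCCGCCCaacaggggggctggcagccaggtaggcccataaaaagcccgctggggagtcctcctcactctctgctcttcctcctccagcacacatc
Havcr1: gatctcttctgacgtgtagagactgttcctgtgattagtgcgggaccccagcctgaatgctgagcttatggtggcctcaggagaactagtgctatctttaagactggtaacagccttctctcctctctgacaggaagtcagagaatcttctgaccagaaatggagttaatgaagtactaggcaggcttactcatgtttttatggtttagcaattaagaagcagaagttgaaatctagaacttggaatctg
Spp1: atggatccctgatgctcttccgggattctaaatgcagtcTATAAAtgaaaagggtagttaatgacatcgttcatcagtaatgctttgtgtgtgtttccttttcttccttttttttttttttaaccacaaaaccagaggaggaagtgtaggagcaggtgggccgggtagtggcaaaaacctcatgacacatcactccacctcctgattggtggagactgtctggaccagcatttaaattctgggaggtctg
Krt18: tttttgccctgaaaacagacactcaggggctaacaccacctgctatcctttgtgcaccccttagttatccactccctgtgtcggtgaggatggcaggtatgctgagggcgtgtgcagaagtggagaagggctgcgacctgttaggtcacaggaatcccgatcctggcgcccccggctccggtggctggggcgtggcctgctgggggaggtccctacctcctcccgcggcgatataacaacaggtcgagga
Krt20: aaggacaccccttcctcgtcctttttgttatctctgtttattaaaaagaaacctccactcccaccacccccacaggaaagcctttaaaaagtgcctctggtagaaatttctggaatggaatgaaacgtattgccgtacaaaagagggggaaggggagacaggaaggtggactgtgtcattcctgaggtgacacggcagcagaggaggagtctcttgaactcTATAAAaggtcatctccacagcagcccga

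Neither CACGTG nor TGANTCA, the AP-1 motif, had a match on either strand in any of the 11 windows of the 8 members with an entry (*Lcn2*, *Havcr1*, *Spp1*, *Timp1*, *Krt8*, *Krt18*, *Krt20* and *Vim*). Over all 32851 windows of the same length, 6.02% held the E-box and 6.75% the AP-1 motif. A match of the TATAAA box began 32 bases before the start of *Vim*, 29 bases before that of *Krt20* and 211 bases before the first start of *Spp1*, and the GGGCGG box began 94 bases before *Lcn2* and 8 bases before *Timp1*, counted at its first base along the gene. These boxes were in 12.4% and 32.7% of all windows. Both strands were searched, no window held matches of more than 1 of these motifs, and the absence of a match refers only to these letters in these windows.

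Per length, the members spanned a wide range of levels (the plot of level per length). *Spp1* led with 7871 ± 2007 FPKM (reads scaled to exon length and to library size, SD over n = 18 kidneys), and *Sox9* was lowest with 16.3 ± 5.1 FPKM. *Clu* (688 ± 233 FPKM) and *Krt20* (615 ± 149 FPKM) followed *Spp1* and differed by less than their spread. *Lcn2* came next at 413 ± 155 FPKM. *Havcr1* (211 ± 123 FPKM) and *Krt8* (200.3 ± 34.4 FPKM) could not be told apart, nor could *Timp1* (38.7 ± 12 FPKM) and *Vim* (37.4 ± 7.83 FPKM), with *Krt18* between these pairs at 109 ± 30.6 FPKM. The highest kidney had 13.6 times the level of the lowest for *Havcr1*, the widest spread of the 10, and 1.8 times for *Krt8*, the narrowest. With the longest transcript in place of all exons as the length, *Lcn2* (788 FPKM) stood above *Krt20* and *Vim* (60.6 FPKM) above *Timp1*.

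**Figure D1:**
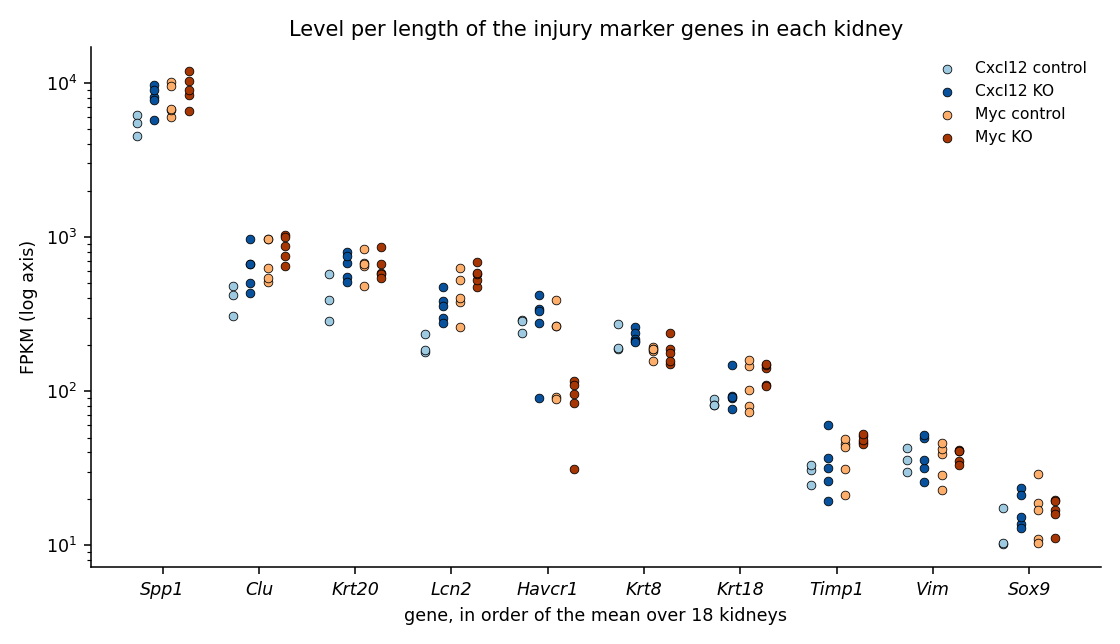
Level of each member per length in FPKM (vertical log axis) in each of the 18 kidneys, coloured by group, with genes ordered by their mean. *Spp1* lies above all other members in every kidney, between 4539 and 11942 FPKM, and *Havcr1* has the widest spread, from 31.2 to 423 FPKM.

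In the *Cxcl12* cohort all 10 members had a fold change above 0, from *Krt8* at 0.070 to *Lcn2* at 0.84 on the log2 scale, with a median of 0.35 against 0.00083 over all 15154 genes tested. At an adjusted p under 0.05, the quasi-likelihood test of edgeR called 0 of the 10, and 0% of all genes. DESeq2 called 2 members, *Lcn2* and *Spp1*, and 2.33% of all genes, and limma voom called 0 members and 0% of all genes. At an unadjusted p under 0.05, 4 members were higher in KO kidneys (*Lcn2*, *Spp1*, *Krt20* and *Clu*) and 0 were lower, where 6.41% of all genes were higher and 6.63% lower. Without the deeper group these counts were 3 and 0, where 13.5% of all genes passed in either direction, and 8 of the 10 members lay above 0. The fold changes of *Havcr1*, *Krt8*, *Vim* and *Timp1* were small against their errors, and each turned negative when 1 kidney was left out.

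In the *Myc* cohort 7 of the 10 members had a fold change above 0, and the largest fold change in size was a negative one, that of *Havcr1*. The median of the members was 0.18 against -0.00083 over all 14936 genes tested. The edgeR test called 0 members, where it called 1.65% of all genes, 0.355% as higher and 1.29% as lower, and DESeq2 and limma voom also called 0, against 7.57% and 1.44% of all genes. In 0 members did the groups not overlap, which was so for 6.25% of all genes, 1.57% higher and 4.69% lower. Without the deeper group, with 3 kidneys against 3, the groups did not overlap for 1 member, *Timp1*, and for 29.9% of all genes. At an unadjusted p under 0.05, 1 member was lower, *Havcr1*, and 0 were higher, against 11.2% and 10.6% of all genes. Without the deeper group these counts were the same, where 23.4% of all genes passed in either direction, and 8 members lay above 0.

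**Figure D2:**
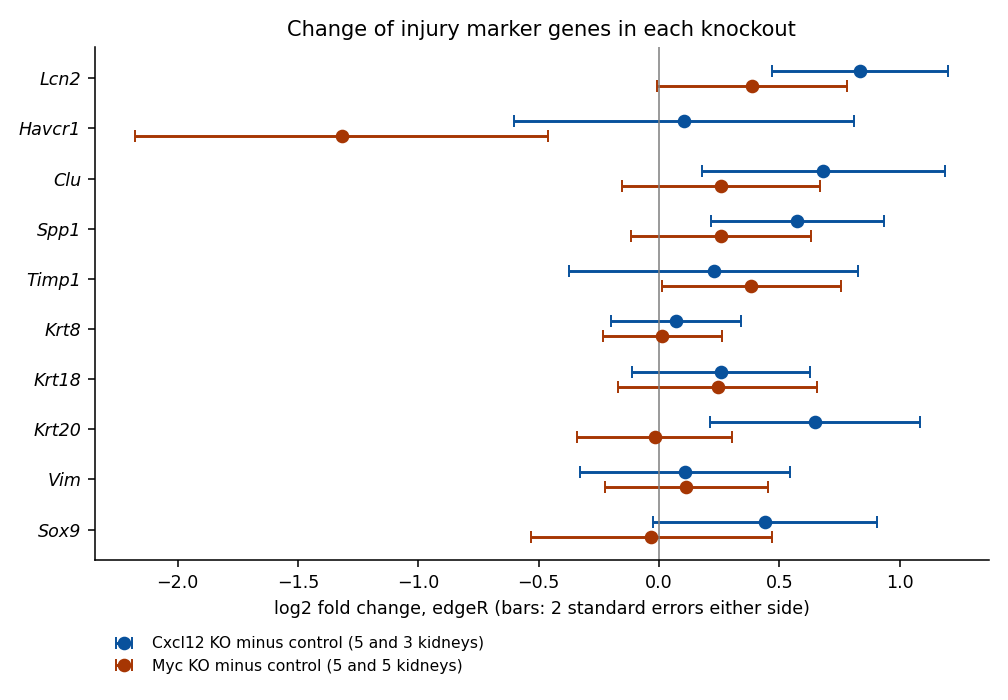
Log2 fold change of each member, KO minus control, from edgeR in the *Cxcl12* cohort (5 and 3 kidneys) and the *Myc* cohort (5 and 5 kidneys), with bars of 2 standard errors either side. *Lcn2* lies highest in the *Cxcl12* cohort at 0.84, and *Havcr1* lowest in the *Myc* cohort at -1.32.

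*Lcn2* (ENSMUSG00000026822, chr2:32384633-32388252, minus strand of GRCm38) encodes neutrophil gelatinase-associated lipocalin, an iron-siderophore carrier that injured tubules release into urine and that neutrophils also store in their granules. It stood at 787, 722, 1239.7, 1005 and 933 CPM in *Cxcl12* KO 1 to 5 and at 472, 487 and 617 CPM in the 3 controls. Every KO kidney lay above every control, a separation that *Lcn2* alone of the 10 members showed in this cohort, and that 4.75% of all genes showed upward, 4.78% downward and 9.54% in either direction. The group means were 937 ± 203 CPM (SD, n = 5) and 525 ± 79.7 CPM (SD, n = 3). In edgeR the log2 fold change was 0.84 (SE 0.18, edgeR adjusted p = 0.106), rank 114 of 15154 by p, and the exact permutation p was 0.0179, the smallest that 5 kidneys against 3 allow (adjusted over 20 tests, 0.286). The call depended on the test. The adjusted p was 0.000856 in DESeq2, 0.0133 in edgeR with no filter on low counts, 0.0398 in edgeR without the deeper group (log2 fold change 1.02) and 0.0189 with that group as a covariate, within a range from 0.000856 to 0.379 over all alternatives.

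With *Myc* deleted, *Lcn2* stood at 1251, 1387, 1505, 1531 and 1794 CPM in KO 1 to 5 and at 992, 1046, 1661, 682 and 1389 CPM in control 1 to 5. All 5 KO kidneys lay above the control mean, but *Myc* control 3 and 5 reached into the KO range, and the groups overlapped. The difference between the groups was 0.39 (SE 0.20, edgeR adjusted p = 0.27) on the log2 scale, with an exact permutation p of 0.119. The highest group mean was that of *Myc* KO at 1494 ± 201 CPM (SD, n = 5), followed by *Myc* control, from which it differed by less than the spread.

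Neutrophil markers differed between the groups in the same direction as *Lcn2*. The summed level of 8 neutrophil genes ranged from 29.8 to 129.6 CPM in *Cxcl12* KO, from 18.7 to 26.6 CPM in *Cxcl12* control, from 137 to 261 CPM in *Myc* KO and from 46.3 to 230.4 CPM in *Myc* control kidneys. In the *Cxcl12* cohort 6 of the 8 were tested and all 6 had an unadjusted p under 0.05, with a median log2 fold change of 1.74, and none was called. The smallest p was that of *Retnlg* at 2.00 (SE 0.56, edgeR adjusted p = 0.187). The median of 6 in the *Myc* cohort was 0.65, with the smallest p for *Cxcr2* at 0.86 (SE 0.40, edgeR adjusted p = 0.232). Of the defining markers, *Camp* was at 0 in 5 kidneys and *Ly6g* had 1 to 25 reads per kidney (both chosen after their values were seen). The part of neutrophils in the *Lcn2* values was not tested.

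*Havcr1* (ENSMUSG00000040405, chr11:46735080-46779578, plus strand) encodes kidney injury molecule 1, a phosphatidylserine receptor of injured proximal tubule cells whose outer part is shed into urine. In *Myc* KO 1 to 5 it stood at 269, 252, 192, 72.1 and 219.8 CPM, and in *Myc* control 1 to 5 at 607, 613, 212, 898 and 205 CPM. All 5 KO kidneys lay below the control mean, but *Myc* control 3 and 5 lay within the KO range. The means were 201 ± 77.9 CPM (SD, n = 5) and 507 ± 297 CPM (SD, n = 5). This is a log2 fold change of -1.32 (SE 0.43, edgeR adjusted p = 0.12), and the exact permutation p was 0.0952 where 0.00794 is the smallest possible. Without *Myc* control 3, a kidney at the KO level, the adjusted p became 0.0481 (log2 fold change -1.52). Over all alternatives it ran from 0.0481 to 0.276, with every fold change below 0.

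With *Cxcl12* deleted, *Havcr1* stood at 792, 759, 208, 979 and 640.2 CPM in KO 1 to 5 and at 550.4, 668 and 661 CPM in the controls. *Cxcl12* KO 3 lay far below all other kidneys of its cohort, while the other 4 KO kidneys lay above the lowest control. On the log2 scale the difference was 0.10 (SE 0.35, edgeR adjusted p = 0.928), and its sign turned in limma voom and without the deeper group. Over the 18 kidneys *Havcr1* fell into separate ranges, with 8 kidneys from 72.1 to 269 CPM and 10 kidneys from 550.4 to 979 CPM. The lower range held all 5 *Myc* KO kidneys, 2 *Myc* control kidneys and 1 *Cxcl12* KO kidney.

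**Figure D3:**
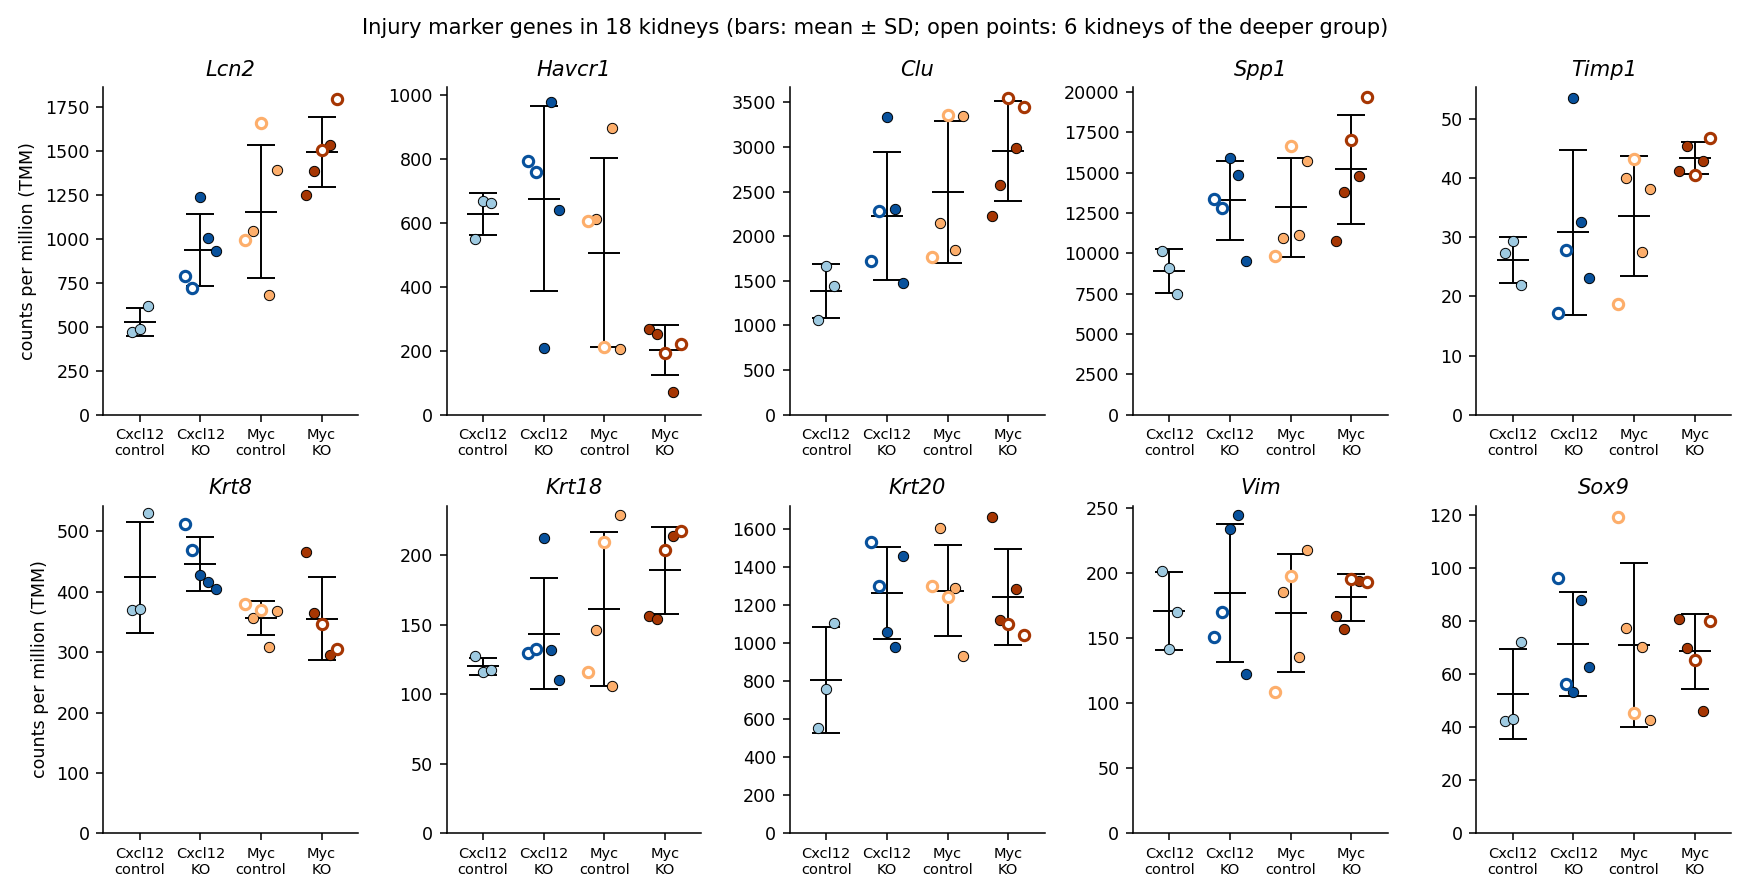
CPM of each of the 10 members in each kidney (vertical axes from 0) by group, with the mean ± SD, and open points for the 6 kidneys of the deeper group. All 5 *Cxcl12* KO kidneys lie above the 3 controls for *Lcn2*, and *Havcr1* shows a gap between 269 and 550.4 CPM.

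*Clu* (ENSMUSG00000022037, chr14:65968483-65981547, plus strand) encodes clusterin, a secreted chaperone. It stood at 1724, 2281, 3342, 2302 and 1478 CPM in *Cxcl12* KO 1 to 5 and at 1060.3, 1662 and 1438 CPM in the controls, where 1 KO kidney, the fifth, lay within the control range. As a log2 fold change this was 0.68 (SE 0.25, edgeR adjusted p = 0.3), with an exact permutation p of 0.0536. In the *Myc* cohort the values were 2227, 2574, 3546, 2986 and 3452 CPM in KO and 1765, 2152, 3356, 1852 and 3351 CPM in control kidneys, with overlapping groups and a log2 fold change of 0.26 (SE 0.21, edgeR adjusted p = 0.481).

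*Spp1* (ENSMUSG00000029304, chr5:104435118-104441050, plus strand) encodes osteopontin, a secreted phosphoprotein that binds integrins, and it shares 309 bases of exon with *Gm42793* on the same strand. Its level was 13338, 12811, 15926, 14855 and 9505 CPM in *Cxcl12* KO 1 to 5 and 10155, 9112 and 7480.2 CPM in the controls, again with *Cxcl12* KO 5 inside the control range. A log2 fold change of 0.57 (SE 0.18, edgeR adjusted p = 0.23) resulted, and DESeq2 gave an adjusted p of 0.0313, the lowest in a range of 0.0313 to 0.496 over all alternatives. *Myc* KO kidneys held 10760.3, 13784, 17042, 14790.0 and 19679.9 CPM and *Myc* control kidneys 9856, 10967, 16637, 11103 and 15691 CPM. These groups overlapped over most of their range, with a log2 fold change of 0.26 (SE 0.19, edgeR adjusted p = 0.441).

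*Timp1* (ENSMUSG00000001131, chrX:20870166-20874735, plus strand) encodes a secreted inhibitor of matrix metalloproteinases and was, per length, the lowest of the secreted members. In *Myc* KO kidneys it lay in a narrow band, 41.3, 45.4, 40.6, 42.9 and 46.8 CPM, and in *Myc* controls it was spread over 18.8, 40, 43.3, 27.6 and 38.3 CPM. The KO band overlapped only the upper end of the control values, where *Myc* control 3 lay. The log2 fold change was 0.38 (SE 0.19, edgeR adjusted p = 0.249), with an exact permutation p of 0.0397 (0.286 adjusted over 20 tests). With *Cxcl12* deleted, *Timp1* stood at 17.1, 28, 53.6, 32.6 and 23.1 CPM in KO and 27.3, 29.4 and 21.9 CPM in control kidneys. *Cxcl12* KO 3 stood above all other kidneys of the cohort, and without it the log2 fold change turned from 0.23 to -0.066.

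Among the filament genes, *Krt20* (ENSMUSG00000035775, chr11:99428403-99438150, minus strand), a keratin of gut and urothelium that injured tubules switch on, had the highest level per length. It stood at 1530.2, 1301, 1058, 978 and 1456 CPM in *Cxcl12* KO 1 to 5 and at 552, 756 and 1104 CPM in the controls, where control 3 reached above 2 KO kidneys. The log2 fold change was 0.65 (SE 0.22, edgeR adjusted p = 0.261), with an exact permutation p of 0.0714. In the *Myc* cohort the values were 1666, 1123, 1103, 1287 and 1043 CPM in KO and 1303, 1605, 1246, 1291 and 930.1 CPM in control kidneys, at a log2 fold change of -0.019 with an interval of 2 SE from -0.34 to 0.30. Urothelial markers, 5 genes, summed to 4.76 to 16.6 CPM in *Cxcl12* KO and to 11.2 to 15.5 CPM in *Cxcl12* control kidneys, and their part in the *Krt20* values was not tested.

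*Krt8* (ENSMUSG00000049382, chr15:101996698-102004482, minus strand) and *Krt18* (ENSMUSG00000023043, chr15:102028180-102032027, plus strand) encode the type II and type I keratins that pair into the filaments of simple epithelia. *Krt8* varied least of all members, with 294 to 530.2 CPM over the 18 kidneys, and its log2 fold changes were 0.070 with *Cxcl12* deleted and 0.013 with *Myc* deleted, with intervals of 2 SE from -0.20 to 0.34 and from -0.23 to 0.26. It shares 101 bases of exon with *Gm36026* on the opposite strand and has a named pseudogene, *Krt8-ps*, and the counts ignore strand. *Krt18* stood at 130.0, 133, 213, 132 and 110.3 CPM in *Cxcl12* KO and 127, 116 and 117 CPM in *Cxcl12* control kidneys, and at 156, 154, 204, 214 and 217 CPM in *Myc* KO and 116, 146, 209, 106 and 229 CPM in *Myc* control kidneys. *Cxcl12* KO 3 and *Myc* control 3 and 5 stood high for *Krt18*, and they are the kidneys that stood low for *Havcr1*. The fold changes of *Krt18* were 0.26 (SE 0.18, edgeR adjusted p = 0.581) and 0.24 (SE 0.21, edgeR adjusted p = 0.513).

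*Vim* (ENSMUSG00000026728, chr2:13573927-13582826, plus strand) encodes vimentin, the filament protein of mesenchymal cells that dedifferentiated tubule cells also make. It ranged from 123 to 245 CPM in *Cxcl12* KO, from 142 to 202 CPM in *Cxcl12* control, from 157 to 195 CPM in *Myc* KO and from 109 to 218 CPM in *Myc* control kidneys. The fold changes were 0.11 (SE 0.22, edgeR adjusted p = 0.87) and 0.11 (SE 0.17, edgeR adjusted p = 0.727). Of 6 fibroblast and pericyte markers, 1 had a fold change above 0 in the *Cxcl12* cohort (median -0.21) and 5 in the *Myc* cohort (median 0.19). The part of these cells in the *Vim* values was not tested.

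*Sox9* (ENSMUSG00000000567, chr11:112782224-112787760, plus strand) ranged from 53.4 to 96.5 CPM in *Cxcl12* KO and stood at 42.3, 43 and 72.4 CPM in the *Cxcl12* controls. All 5 KO kidneys lay above the control mean, and control 3 lay above 3 of them. The log2 fold change was 0.44 (SE 0.23, edgeR adjusted p = 0.448). With *Myc* deleted, *Sox9* ranged from 46.2 to 81.1 CPM in KO and from 42.7 to 119 CPM in control kidneys, with a log2 fold change of -0.032 (SE 0.25, edgeR adjusted p = 0.953).

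The difference between the knockout effects was tested over all 18 kidneys. At an adjusted p under 0.05, 0 members were called by edgeR, DESeq2 and limma voom, where edgeR called 0.0692% of all genes, 0.0377% as higher and 0.0314% as lower, DESeq2 2.04% and limma voom 0.0189%. At an unadjusted p under 0.05, 2 members had the higher effect in the *Cxcl12* cohort and 0 the lower, against 6.77% and 4.62% of all genes, and without the deeper group 0 members did either way, against 15% of all genes. *Havcr1* had the largest difference, a *Cxcl12* effect 1.43 above the *Myc* effect on the log2 scale (SE 0.64, edgeR adjusted p = 0.403). *Krt20* followed at 0.67 (SE 0.28, edgeR adjusted p = 0.361). For *Lcn2* the difference was 0.46, with an interval of 2 SE from -0.13 to 1.04.

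The control kidneys of the cohorts also differed, although neither had lost a gene. *Lcn2* was lower in *Cxcl12* controls than in *Myc* controls, with a log2 fold change of -1.14 (SE 0.23, edgeR adjusted p = 0.0174), and the 3 *Cxcl12* controls all lay below the lowest *Myc* control at 682 CPM. It was the 1 member called in edgeR, where 1.99% of all genes were, 1.12% as lower. Without *Cxcl12* control 1 the adjusted p became 0.112 and without *Cxcl12* control 2 0.0904, within 6.03e-05 to 0.112 over all alternatives. *Clu*, at -0.85 (SE 0.27, edgeR adjusted p = 0.104), and *Krt20*, at -0.67 (SE 0.22, edgeR adjusted p = 0.111), were called in DESeq2, which called 5.04% of all genes, with adjusted p-values of 0.0235 and 0.0369, within 0.0235 to 0.347 and 0.0369 to 0.402 over all alternatives. Limma voom called 1 member, *Lcn2*, and 1.57% of all genes. At an unadjusted p under 0.05, 4 members were lower in *Cxcl12* controls and 0 were higher, against 9.42% and 8.28% of all genes. The groups did not overlap for 2 members, *Lcn2* and *Clu*, both lower in *Cxcl12* controls, where 5.98% of all genes were apart in that direction and 5.68% in the other. The *Lcn2* level of *Cxcl12* KO kidneys, 722 to 1239.7 CPM, overlapped that of *Myc* controls, 682 to 1661 CPM. Here too the neutrophil markers moved with *Lcn2*: all 7 tested had a fold change below 0, 2 of them called, with a median log2 fold change of -2.38, and their part was not tested. The floxed line, the cohort and any batch that goes with them cannot be told apart in this comparison.

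Across the 4 groups, *Myc* KO kidneys had the highest mean for *Lcn2*, *Clu*, *Spp1*, *Timp1* and *Krt18*, and *Cxcl12* control kidneys the lowest for these and for *Krt20* and *Sox9*. Neighbours in the order of means are called apart here only where they differ by more than the larger of their SDs. For *Lcn2* the order was *Myc* KO (1494 CPM), *Myc* control (1154 ± 379 CPM), *Cxcl12* KO (937 CPM) and *Cxcl12* control (525 CPM), and only the last step was apart. The last step, down to *Cxcl12* control, was also the only one apart for *Clu*, *Spp1* and *Krt20*, by mean and SD of 3 kidneys. It led from *Cxcl12* KO for *Clu* (to 1387 ± 304 CPM). For *Spp1* it led from *Myc* control (to 8916 ± 1348 CPM) and for *Krt20* from *Myc* KO (to 804 ± 279 CPM), so that it crossed the cohorts. For *Havcr1* the order was *Cxcl12* KO, *Cxcl12* control, *Myc* control and *Myc* KO, and only the step from *Myc* control to *Myc* KO was apart. No neighbours were apart for *Timp1*, *Krt8*, *Krt18*, *Vim* and *Sox9*. Groups of different cohorts differ in more than the deleted gene, and these orders are a description.

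Other genes of tubular injury were read from lists that do not contain the members. Of 26 dedifferentiation and repair genes, 19 had a fold change above 0 in the *Cxcl12* cohort and 18 in the *Myc* cohort, with medians of 0.27 and 0.21. Their summed level was 5831 to 7011 CPM in *Cxcl12* KO and 4959.7 to 5796 CPM in *Cxcl12* control kidneys, and 6687 to 7303 CPM and 5249.5 to 7340.4 CPM in the *Myc* cohort. The edgeR test called 0 in either, and at an unadjusted p under 0.05, 9 were higher and 0 lower in *Cxcl12* KO, against 6.41% and 6.63% of all genes, and 6 were higher and 2 lower in *Myc* KO, against 10.6% and 11.2%. The smallest p-values were those of *Akap12*, a scaffold of protein kinase A, in the *Cxcl12* cohort at 0.81 (SE 0.15, edgeR adjusted p = 0.0896), and of *Hbegf*, an EGF-like growth factor, in the *Myc* cohort at 0.57 (SE 0.17, edgeR adjusted p = 0.102).

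Of 12 other urinary biomarkers, 11 were tested in the *Cxcl12* cohort, 4 of them above 0, and 10 in the *Myc* cohort, 5 of them above 0, with medians of -0.031 and -0.0081. *Fabp1*, the liver-type fatty acid binding protein that proximal tubule cells can shed, had the smallest p in the *Cxcl12* cohort, at -2.44 (SE 0.59, edgeR adjusted p = 0.132). Its level was near the floor, with 1 to 73 reads per kidney, and it did not pass the filter in the *Myc* cohort. *Egf*, made in the distal nephron, had the smallest p in the *Myc* cohort, at 0.52 (SE 0.15, edgeR adjusted p = 0.0962). The 12 other keratin and filament genes tested in each cohort had medians of -0.052 and 0.14, with *Krt23* at 0.60 (SE 0.30, edgeR adjusted p = 0.422) and the linker *Plec* at 0.52 (SE 0.15, edgeR adjusted p = 0.0963) as their smallest p-values.

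Of 23 receptors, ligands and partners of the members, 19 were tested in each cohort, with medians of 0.14 and 0.18. At an unadjusted p under 0.05, 6 were higher and 2 lower in *Cxcl12* KO, against 6.41% and 6.63% of all genes. In *Myc* KO 4 were higher and 1 lower, against 10.6% and 11.2%. Subunits of an integrin that binds osteopontin had the smallest p-values, *Itgb3* in the *Cxcl12* cohort at 0.85 (SE 0.18, edgeR adjusted p = 0.0973) and *Itgav* in the *Myc* cohort at 0.52 (SE 0.16, edgeR adjusted p = 0.101). *Itgb3* stood at 0.63 (SE 0.21, edgeR adjusted p = 0.128) in the *Myc* cohort and *Itgav* at 0.27 (SE 0.11, edgeR adjusted p = 0.337) in the *Cxcl12* cohort. Other integrin genes of the list varied: in the *Cxcl12* and *Myc* cohorts *Itgb1* stood at 0.28 and 0.11 and *Itgb5* at -0.26 and -0.041. Values for *Itgb6* were 0.12 and 0.067, and for *Itga9* 0.045 and 0.35. In both cohorts 0 genes of these 4 lists were called.

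Kidneys of the same group differed from each other, and several members differed together. Deviations of log2 CPM from the group means were correlated over the 18 kidneys for all 45 pairs of members. The 36 pairs without *Havcr1* are given here and those with it further below, since its values fall into separate ranges. Of the 36, 13 had a permutation p adjusted over 45 pairs under 0.05, 11 with a positive and 2 with a negative r (the matrix of r). The share of pairs among all genes that would pass was not computed. Genes outside the list gave higher r with several members, as given below, so the count does not set the members apart. *Krt18*, *Clu*, *Spp1*, *Lcn2*, *Vim* and *Timp1* were the members of the 11 positive pairs. *Clu* with *Krt18* gave r = 0.86 and rho = 0.83 (permutation p = 0.00035 and 0.00038, adjusted p = 0.0106 and 0.00967, n = 18). *Lcn2* with *Krt18* gave r = 0.80 and rho = 0.77 (permutation p = 0.00189 and 0.00155, adjusted p = 0.0106 and 0.0115, n = 18).

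*Spp1* and *Krt20* deviated in opposite directions, with r = -0.73 and rho = -0.76 (permutation p = 0.00059 and 0.00043, adjusted p = 0.0106 and 0.00967, n = 18). Without the 2 kidneys farthest from the median of the first gene, r was 0.80 for *Clu* with *Krt18*, 0.72 for *Lcn2* with *Krt18* and -0.67 for *Spp1* with *Krt20*. Within the 6 kidneys of the deeper group these r were 0.93, 0.83 and -0.53, and within the other 12 they were 0.83, 0.80 and -0.86. With deviations taken from the means of group by deeper group, 0 of the 36 pairs had an adjusted p under 0.05, at r of 0.65 to 0.87 in size for the 13. Several pairs rested on *Cxcl12* KO 3 and *Myc* control 3 and 5, the kidneys of lowest *Havcr1* in their groups, chosen after the data were seen. In the 15 kidneys without them, r was 0.60, 0.48 and -0.72 for *Spp1* with *Krt20*, and again 0 of the 36 pairs had an adjusted p under 0.05 (lowest 0.141). *Krt8* was in none of the 13 pairs, and with its filament partner *Krt18* it gave r = -0.12 and rho = -0.21 (permutation p = 0.59 and 0.41, adjusted p = 0.618 and 0.44, n = 18).

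**Figure D4:**
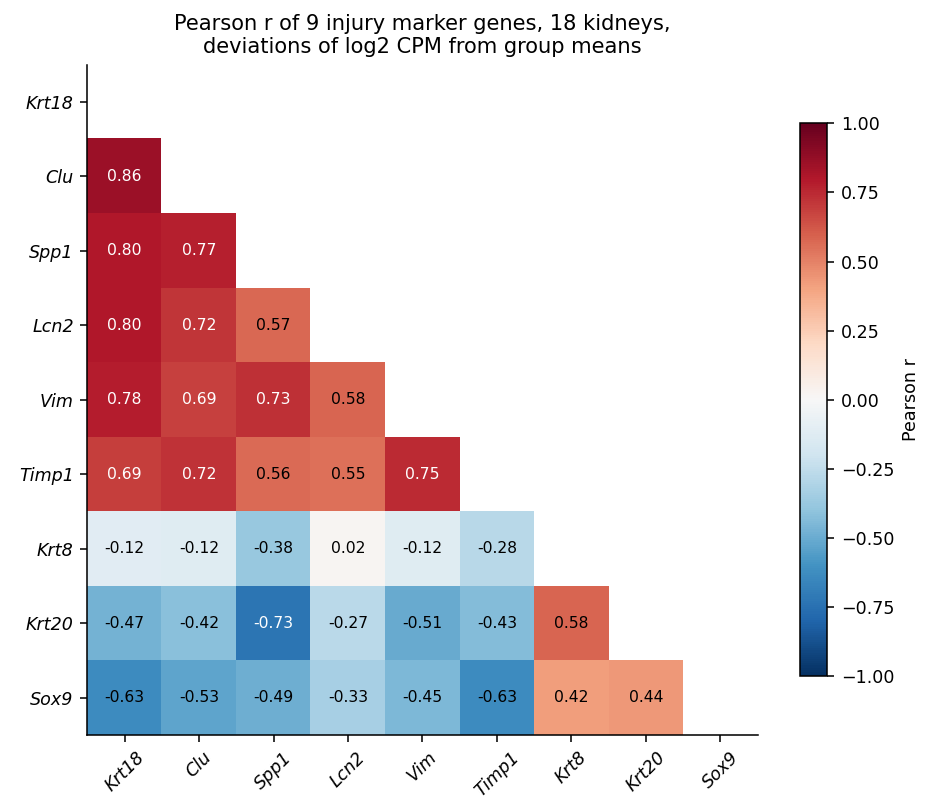
Pearson r of each pair of 9 members (*Havcr1* left out) over 18 kidneys, on deviations of log2 CPM from the group means, from -1 in blue to 1 in red. *Krt18*, *Clu*, *Spp1*, *Lcn2*, *Vim* and *Timp1* hold the 11 positive pairs with an adjusted p under 0.05, and *Spp1* with *Krt20* stands at -0.73.

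*Havcr1* was related to the other members within each of its ranges, 18 relations in all. None had a permutation p adjusted over the 18 under 0.05. Group means were not removed here and permutations ran over all kidneys of a range, so group differences enter these r. A range holds only part of the spread of *Havcr1*. These relations therefore cannot show whether it varied with a member over all kidneys, for which r is given last. The smallest raw p was that of *Spp1* in the 10 kidneys of the upper range, with r = 0.66 (permutation p = 0.0391, adjusted p = 0.456, n = 10) and rho = 0.59 (permutation p = 0.0812, adjusted p = 0.573), and without the 2 kidneys farthest from the median r was 0.51. *Lcn2* gave r = -0.24 in the 8 kidneys of the lower range and r = 0.24 in the upper range (permutation p = 0.592 and 0.495). Read kidney by kidney, *Cxcl12* KO 3 had the lowest *Havcr1* of its group and the highest *Lcn2*, *Clu*, *Spp1*, *Timp1* and *Krt18*. *Myc* control 3 and 5 had the lowest *Havcr1* of theirs and the 2 highest values of *Lcn2*, *Clu*, *Spp1* and *Krt18*. Over the 18 kidneys, deviations of *Havcr1* from the group means gave r = -0.85 with *Krt18* and 0.73 with *Sox9*. With *Lcn2* and *Clu* r was -0.70 and -0.64. The permutation p adjusted over all pairs of members were 0.0106, 0.0111, 0.0237 and 0.0458, and 0.108 or more for other *Havcr1* pairs. With means of group by deeper group none was under 0.05 (lowest 0.0562). Without *Cxcl12* KO 3 and *Myc* control 3 and 5, r was -0.48, 0.49, -0.23 and -0.0034 (lowest adjusted p 0.31).

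**Figure D5:**
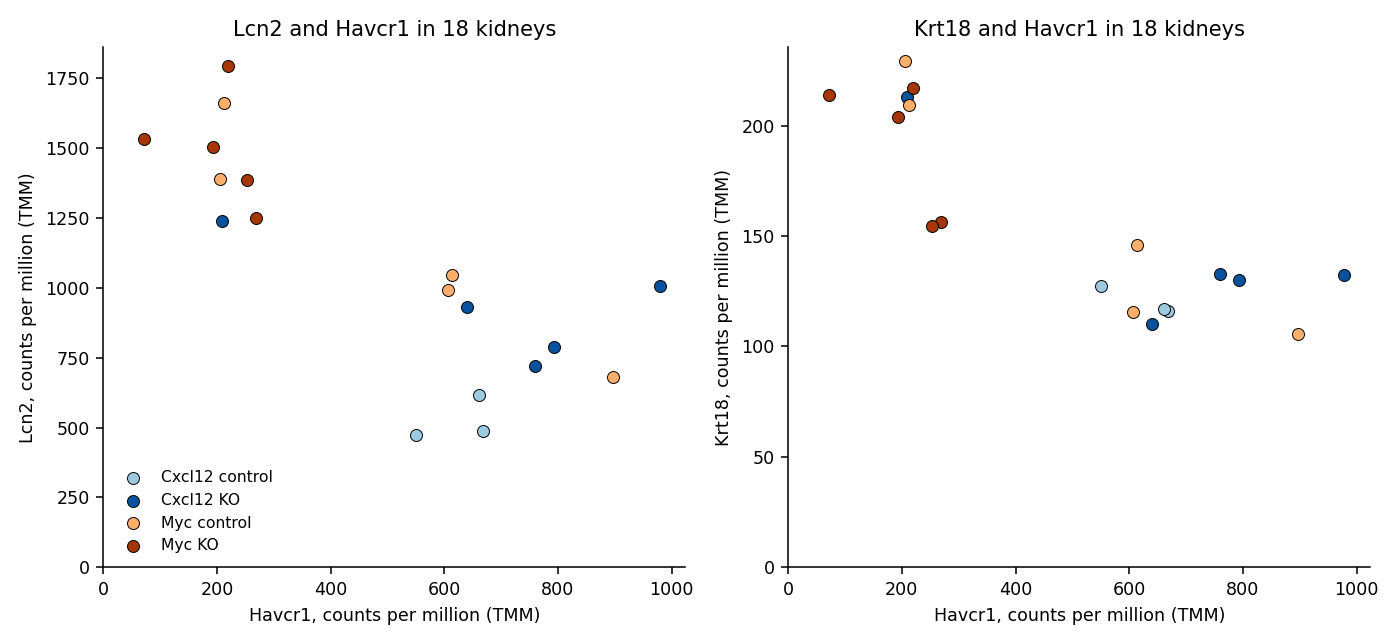
*Lcn2* (left) and *Krt18* (right) against *Havcr1* in CPM, 1 point per kidney, coloured by group, all axes from 0. The 8 kidneys at or below 269 CPM of *Havcr1* lie apart from the 10 at or above 550.4 CPM, and no line is drawn because the points fall into separate ranges.

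The genes whose deviations from the group means were most like those of each member over the 18 kidneys, among 13764 genes with a mean of at least 1 CPM, are given with Pearson's r as a description, since all points share a library. *Lcn2* was closest to *Dbn1* (r = 0.93), *Sox4* (r = 0.92) and *Notch4* (r = 0.92), and *Havcr1* to *Acot12* (r = 0.93), *Cldn12* (r = 0.90) and *Srpk1* (r = 0.90). *Clu* was closest to *Mall* (r = 0.92), *Emp2* (r = 0.91) and *Hpcal4* (r = 0.90), *Spp1* to *Tceal9* (r = 0.96), *Emcn* (r = 0.96) and *Tbc1d2b* (r = 0.93), and *Timp1* to *Trpm2* (r = 0.93), *Tgfbi* (r = 0.89) and *Arhgap45* (r = 0.89). Among the filament genes, *Krt18* was closest to *Fam3c* (r = 0.96), *Ehd4* (r = 0.95) and *Epcam* (r = 0.95), *Krt20* to *Cyp2j9* (r = 0.94) and *Slc22a22* (r = 0.87) beside a gene without a symbol, *Vim* to *Emp3* (r = 0.91), *Nlrp12* (r = 0.91) and *Fstl1* (r = 0.91), and *Krt8*, with lower values, to *Mark2* (r = 0.77), *Cdr2* (r = 0.77) and *Rangap1* (r = 0.76). *Sox9* was closest to *Mark3* (r = 0.85), *Cers6* (r = 0.85) and *Minpp1* (r = 0.85). No member was among the 3 nearest genes of another.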

How the data were processed

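RNA of 18 mouse kidneys was sequenced. The authors trimmed reads with Trimmomatic 0.32 and aligned and counted them with STAR 2.4.0 on GRCm38, as the submitters' processing notes list, and deposited raw counts per gene, of which the column that ignores strand was used. Symbols and lengths came from GENCODE vM21 (45143 of 45706 genes matched), promoters from RefSeq GRCm38.p6, in which *Clu* and *Sox9* had no entry. The members and lists were chosen with earlier results of these data known. Counts were filtered with filterByExpr, scaled by TMM and tested with the quasi-likelihood test of edgeR 4.0.16 in R 4.3.3, with Benjamini-Hochberg adjustment over all genes, separately in each cohort (15154 and 14936 genes) and over all 18 kidneys (15903 genes) for the difference of the effects and the controls. Scripts were checked on simulated counts. DESeq2 1.42.0 and limma 3.58.1 (voom), other scalings, filters, count columns and left-out kidneys were tried. Log2 CPM used a prior count of 2. Exact permutation tests were two-sided. Correlations used 100000 two-sided permutations in scipy 1.17.1 and numpy 2.4.6, with the Benjamini-Hochberg method. Deviations from group means were permuted within groups. For the relations of *Havcr1* within its ranges, log2 CPM was permuted over all kidneys of a range. Named genes were the members, the 3 genes most like each, and in each list the gene of smallest p per cohort. Replicates differed by more than counting noise in all 33 pairs (chi-square per degree of freedom 5.77 to 69.1). The authors' batch calibration is not part of the deposited counts.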

Additional observations from a re-analysis of the deposited data

Results flagged for a closer look

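*Krt18* in *Cxcl12* KO 3 stood at 213 CPM, far from the other 4 *Cxcl12* KO kidneys, which lay between 110.3 and 133 CPM. The gap to the nearest of them made up 0.78 of the range of the group, above the limit used for 5 samples. Of 30 groups of values tested in this way, 1 was marked, where chance marks about 1 in 20. The same kidney had the highest *Lcn2*, *Clu*, *Spp1* and *Timp1* and the lowest *Havcr1* of its group. What sets it apart was not tested.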

How the results depend on the processing

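The counts of genes called set the background of every member, and they moved with the processing, as did the calls of members. Over all alternatives, members called ran from 0 to 2 for *Cxcl12* KO and from 0 to 1 for *Myc* KO. Between the controls they ran from 0 to 3, and for the difference of the effects they stayed at 0. In the *Cxcl12* cohort 0 genes were called in edgeR, against 353 in DESeq2, 214 with no filter on low counts, 123 with the deeper group as a covariate, 80 without it, 25 in a fit of all 18 kidneys, 17 with library totals alone and 9 with the counts of the first strand. Members called there were 2 in DESeq2 and 1, *Lcn2*, with the covariate, without the deeper group and with no filter. In the *Myc* cohort 246 genes were called, against 1131 in DESeq2, 954 with the covariate, 683 in the fit of 18, 391 with totals alone and 8 without the deeper group, where the groups of 1 member, *Timp1*, did not overlap, as for 29.9% of all genes. For the difference of the effects 11 genes became 324 in DESeq2, 3 in voom, 44 without the deeper group and 133 with the covariate, and between the controls 316 became 801 in DESeq2, with 3 members called. Leaving out each kidney in turn gave 0 to 15 genes for *Cxcl12* KO, 21 (without *Myc* KO 2) to 877 (without *Myc* control 3) for *Myc* KO, 1 to 75 for the difference and 49 to 611 between the controls, with 0 to 1 member called for *Myc* KO and between the controls. The causes were not tested.

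Some fold changes near 0 turned their sign, none of them a called one. In the *Cxcl12* cohort *Havcr1* became -0.083 in voom, -0.042 without the deeper group and -0.035 with the covariate, and *Krt8* -0.025 and -0.019 in the latter settings. In the *Myc* cohort without the deeper group *Krt20* became 0.11, *Vim* -0.039 and *Sox9* 0.066, in voom *Sox9* 0.039, and with totals alone *Krt8* -0.028. The difference of the effects became 0.17 for *Timp1* and -0.16 for *Krt8* without the deeper group, -0.069 for *Krt18* and -0.071 for *Vim* in voom, and -0.00016 and -0.00086 for *Vim* in DESeq2 and with its size factors. Between the controls *Vim* became -0.079 without the deeper group and -0.043 with the covariate. In the means behind the exact permutation test, leaving out the deeper group gave -0.0062 for *Krt8* in the *Cxcl12* cohort and 0.10 for *Krt8*, 0.11 for *Krt20* and -0.033 for *Vim* in the *Myc* cohort. With 1 kidney left out, values ran over -0.072 to 0.33 for *Havcr1*, -0.066 to 0.38 for *Timp1*, -0.020 to 0.26 for *Krt8* and -0.018 to 0.24 for *Vim* in the *Cxcl12* cohort, over -0.11 to 0.072 for *Krt8*, -0.15 to 0.086 for *Krt20*, -0.015 to 0.22 for *Vim* and -0.17 to 0.23 for *Sox9* in the *Myc* cohort, over -0.45 to 0.0080, -0.033 to 0.25, -0.18 to 0.13 and -0.13 to 0.13 for *Timp1*, *Krt8*, *Krt18* and *Vim* in the difference, and over -0.12 to 0.13 for *Vim* between the controls.

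Of the 13 pairs without *Havcr1* that varied together, 0 passed with deviations from the means of group by deeper group. Their r there were 0.65 to 0.87 in size. Permutations ran within smaller sets of kidneys, so the loss of calls does not show weaker relations. Without the 3 kidneys of lowest *Havcr1* in their groups 0 passed, at r of 0.33 to 0.72 in size. With the replicate number as a replicate block, 0 genes were called for *Cxcl12* KO and 18 for *Myc* KO, with 0 members in either, and *Havcr1* in the *Cxcl12* cohort became -0.30, *Krt8* and *Sox9* in the *Myc* cohort -0.0049 and 0.040. Same-numbered kidneys deviated together with r of -0.07 to 0.17 over 3 pairs and -0.17 to 0.33 over 5 pairs. In the *Cxcl12* cohort 4 of 6 kidneys correlated best with their own number, and in the *Myc* cohort 1 of 10 did. The numbers were not taken as pairs, a choice that the *Cxcl12* values do not settle. Depth limits none of the members, whereas 3 *Cxcl12* controls limit the smallest exact p.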

Other observations

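Markers of the cell types that a whole kidney holds were read beside the injury genes, and in edgeR 0 of them were called in either cohort. Macrophage markers (7 genes) had median log2 fold changes of -0.12 and -0.16 in the *Cxcl12* and *Myc* cohorts, with *Csf1r*, a growth factor receptor, at -0.26 (SE 0.13, edgeR adjusted p = 0.417) with *Cxcl12* deleted and *Adgre1* at -0.32 (SE 0.14, edgeR adjusted p = 0.221) with *Myc* deleted. Each had the smallest p of the list in that cohort. Above 0 lay 1 of the 7 with *Cxcl12* deleted, *Lyz2*, and 2 with *Myc* deleted, *Cd68* and *Csf1r* (0.14). Endothelial markers (5 genes) had medians of 0.14 and 0.24, with *Cdh5*, the cadherin of endothelial junctions, at 0.45 (SE 0.14, edgeR adjusted p = 0.245) and 0.57 (SE 0.18, edgeR adjusted p = 0.121). *Cdh5* had the smallest p of the 5 in both cohorts. In each cohort 4 of the 5 lay above 0, and *Plvap* lay below it at -0.23 and -0.11. Podocyte markers (4 genes) had medians of 0.084 and 0.29.

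Along the nephron, the 6 proximal tubule markers had medians of -0.21 and 0.15, with *Cubn*, an endocytic receptor, at -0.45 (SE 0.19, edgeR adjusted p = 0.36) in the *Cxcl12* cohort, the loop of Henle markers (2 genes) -0.37 and 0.14, the distal convoluted tubule markers (2 genes) -0.40 and 0.24 and the collecting duct markers (4 genes) -0.11 and -0.050. With *Cxcl12* deleted, 0 of the 10 proximal, loop and distal markers and 2 of the 4 collecting duct markers lay above 0. Of all 15154 genes tested there, 7602 did. In the *Myc* cohort 9 of the 10 and 2 of the 4 lay above 0. Urothelial markers had medians of -0.56 and -0.18, fat markers, 2 genes at 0 reads in some kidneys, -1.40 and 0.51, and erythroid markers, 3 genes, 1.20 and -0.027, with sums of 31 to 143 CPM in *Cxcl12* KO and 10.8 to 55.5 CPM in *Cxcl12* control kidneys. The part of blood left in the organs in any value of the members was not tested.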
